A study of Spodoptera frugiperda with 3 samples.

Results

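The comparison described here is that of larvae of the fall armyworm *Spodoptera frugiperda*, a noctuid moth and crop pest, held at 40 °C (T40) with larvae held at 25 °C (T25), the control. Its members are all unigenes in the authors' deposited table for T40 against T25, which are 20077 of the 30327 unigenes in any of the authors' tables (66.2%). T40 larvae of the fourth instar were kept at 40 °C for 16 h, and for T25 the temperature is given but no exposure time. Each temperature has 1 RNA-seq library of whole bodies, made from 5 pooled larvae, and the same population was also held at 4 °C (T4), whose read counts are given only beside a few unigenes. A unigene is a contig of the *de novo* assembly of these reads, so several unigenes may be fragments of 1 gene, and near-identical gene copies may share reads. A listed unigene had passed the authors' thresholds, none has a count of 0, and the smallest difference in the table is 2.35-fold in either direction. Unigenes without such a difference are therefore not in the table, so the counts below describe which way the listed unigenes lie and not how many genes of a group differ.

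Because each temperature has a single library, variation among replicates is unknown and no test was made. The values are read counts as estimated by the authors, and a fold is the ratio of the T40 to the T25 count after each was divided by the effective library size in the authors' normalization (38643842 reads for T40 and 28015943 for T25). The range in parentheses after a fold is its 95% exact counting interval, which covers counting error only and neither larva-to-larva nor library-to-library variation. Levels of different unigenes are set side by side only as FPKM, the fragments per kilobase of unigene and per 1000000 reads. Summed levels of a group are given as RPM, reads per 1000000 of the effective library size. Listed unigenes held 50.2% of the effective library size in T40 and 55.5% in T25.

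Insects cannot hold a constant body temperature, and heat unfolds proteins in each compartment of the cell. Cells answer with molecular chaperones, such as Hsp70, Hsp90 and the small heat shock proteins, which bind unfolding proteins, and with the ubiquitin-proteasome system, which removes damaged ones. The endoplasmic reticulum (ER), where secreted and membrane proteins enter the secretory pathway, has chaperones and quality control of its own. In a caterpillar, the bulk of the RNA comes from the midgut, which digests food, the fat body, which stores nutrients and makes haemolymph proteins, the body wall muscle and the epidermis below the cuticle.

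Primer pairs for qPCR had been designed to 10 unigenes of the assembly, and 8 of these are in the T40/T25 table. The primers of 4 are shown, because they fix which transcript is meant where an annotation name alone (a serine protease, an epoxide hydrolase) fits many unigenes. They are given 5′ to 3′, in lower case since no base is singled out, and the qPCR itself was not analysed here.
c179215_g2_i2 juvenile hormone epoxide hydrolase-like, forward: tcgattacggaggccatttc
c179215_g2_i2 juvenile hormone epoxide hydrolase-like, reverse: gttactaggtggcgccttatt
c214749_g1_i1 venom serine protease-like, forward: ccgtgatacatccgtcgtttac
c214749_g1_i1 venom serine protease-like, reverse: ccaactggctgaactccatatt
c185519_g3_i1 filamin-A, forward: gaagttggtgatgccaagaaag
c185519_g3_i1 filamin-A, reverse: gtgtctacgctgaaggtgtt
c182964_g5_i1 proclotting enzyme-like, forward: cacccaagtgtggttctaact
c182964_g5_i1 proclotting enzyme-like, reverse: cttggtatgggtagggttcttg
The juvenile hormone epoxide hydrolase-like unigene, of a family of enzymes that inactivate juvenile hormone, had 9298 reads in T40 against 12 in T25, or 562-fold higher (321 to 1088). The venom serine protease-like unigene, a secreted trypsin-fold protease, had 11394 reads in T40 against 107 in T25, or 77.2-fold higher (63.8 to 94.3). Filamin-A, which crosslinks actin filaments, had 132 reads in T40 against 3993 in T25, or 41.7-fold lower (35.1 to 50.01). The proclotting enzyme-like unigene, a clip-type serine protease family known from horseshoe crab clotting, had 2 reads in T40 against 1529 in T25, or 1054-fold lower (291 to 8715). The other listed primer targets lay on both sides too. A unigene annotated as 3-ketodihydrosphingosine reductase (c170666_g1_i1), of sphingolipid synthesis, was 8.79-fold higher (7.63 to 10.2), and a SID1 transmembrane family member (c180292_g9_i4) was 11.8-fold higher (8.46 to 16.9). The target c170786_g1_i1, named phospholipase A1-like with its primers and pancreatic triacylglycerol lipase-like by its NR match, was 4.37-fold higher (3.99 to 4.79), while a venom allergen 5-like unigene (c166591_g1_i1), a secreted cysteine-rich protein, had 1 reads in T40 against 904 in T25.

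Of the 20077 listed unigenes, 9453 were higher in T40 (47.1%) and 10624 were lower (52.9%). Differences of 8-fold or more, counted only where the higher count was 50 reads or more, were found for 2051 higher (10.2%) and 2212 lower unigenes (11%). With median-of-ratios scaling in place of the authors' effective sizes, every log2 ratio shifts up by 1.51, and these counts became 5564 higher and 946 lower. A unigene up to 2.84-fold lower then changes direction, so the lower groups of small fold depend on this choice of scaling. That factor was computed from the listed unigenes alone, so it sets their median log2 ratio of -1.51 to 0. TMM factors, totals of trimmed reads and FPKM shift the ratios by 0.10, 0.16 and 0.12. With these, 0 of 34 proteasome and 0 of 75 ubiquitin enzyme unigenes change direction. The median fold was 6.24 among the higher and 6.44 among the lower ones, and 9676 unigenes had fewer than 10 reads in their lower library. Of the 6084 unigenes with a protein match in NR and no bacterial nucleotide match (called insect NR hits), 3255 were higher (53.5%) and 2829 lower (46.5%), with a median log2 ratio of 1.40, and these shares are the background for the gene groups below. At least 8-fold differences were present in 903 higher (14.8%) and 846 lower (13.9%) of them. The 13956 unigenes with no NR match split the other way, with 6171 higher (44.2%) and 7785 lower (55.8%), and 8.18% at least 8-fold higher and 9.74% at least 8-fold lower. They were also thinly covered, with a median of 46 reads in their higher library against 468 for those with a match, and carried 6.91% of the listed reads of T40 and 7.71% of those of T25. Among unigenes of ribosomal RNA type, a mitochondrial one (c214623_g2_i1) had 396723 reads in T40 against 735291 in T25, and another (c214624_g1_i1) had 316965 reads in T40 against 66913 in T25.

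The gene groups are lists of annotation names, 54 in all, and they were spread unevenly over both directions. Every listed unigene of ER translocation and vesicle coats, of the chaperonins and of ER folding was higher in T40, and all but 2 of the mitochondrial ribosome. At the other end, 33 of 34 listed proteasome unigenes were lower in T40 (24 of 34 with median-of-ratios scaling), as were most of those for antimicrobial peptides, cytochrome P450 enzymes, muscle and cuticle. Whole larvae were sequenced, so fewer cells of a type and less RNA per cell cannot be told apart for any of these groups.

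**Figure D1:**
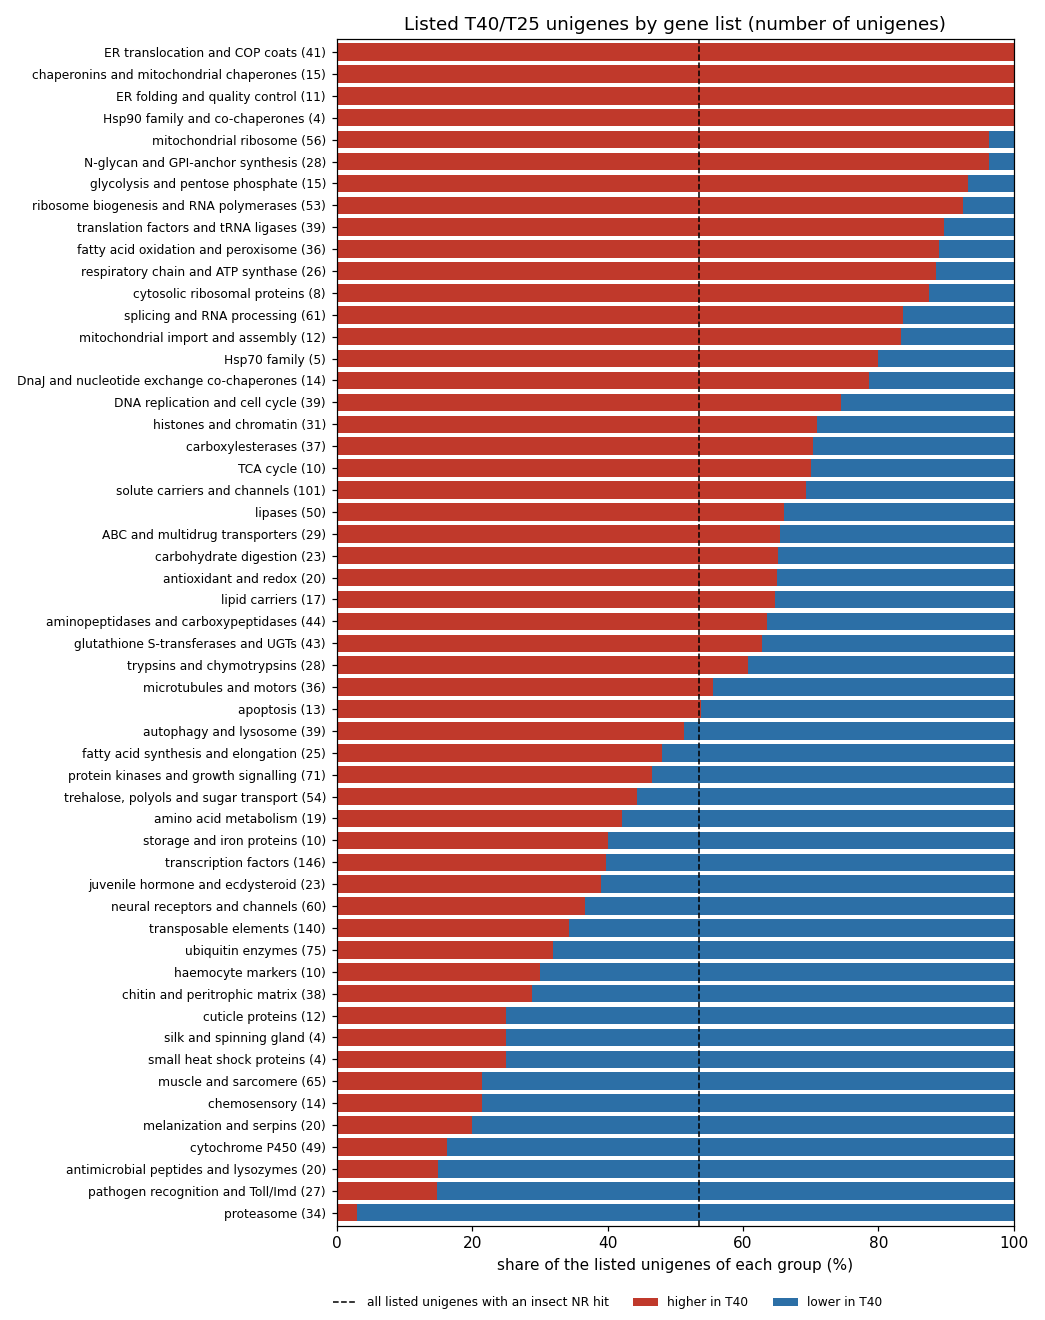
Share of the listed T40/T25 unigenes of each gene list that were higher in T40 (red) or lower in T40 (blue), in percent, with the number of listed unigenes in parentheses. The dashed line at 53.5% is the share higher in T40 among all listed unigenes with an insect NR hit, and the lists run from all higher at the top to 1 of 34 higher for the proteasome at the bottom.

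The abundant RNAs of the larvae differed between the temperatures. Beside ribosomal RNA, the 10 unigenes with most reads in T40 included a lipid carrier, proteases and protein disulfide isomerase, and those in T25 storage and muscle proteins. The moderately methionine rich storage protein was among them in both libraries. The 10 listed unigenes with most reads held 14.8% of the listed reads in T40 (95% exact binomial interval 14.81 to 14.84) and 35.7% in T25 (35.67 to 35.72).

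Among the 15 annotated unigenes that gained most RPM, apolipophorin (c189548_g1_i1), the protein core of the lipid carrier of insect haemolymph, had 505139 reads in T40 against 55061 in T25, and was 6.65-fold higher (6.59 to 6.71). A serine protease (c153123_g1_i1) with a trypsin domain had the highest level of these in T40, with 10580.0 FPKM in T40 and 1978 FPKM in T25. Acyl-CoA-binding protein (c166580_g1_i1), which carries activated fatty acids inside cells, had 249745 reads in T40 against 4704 in T25, and was 38.5-fold higher (37.4 to 39.6). The glucose dehydrogenase-like unigene c179261_g3_i1 of the GMC oxidoreductases was near absent outside T40, with 46 reads in T4, 9 in T25 and 148724 in T40. A haem peroxidase-like unigene (c185002_g1_i4) was 42.6-fold higher (40.9 to 44.4), and the basement membrane proteoglycan perlecan (c189492_g1_i1) 4.25-fold higher (4.19 to 4.32).

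Among the 15 that lost most, hexamerin (c185409_g1_i1), an amino acid store made by the fat body before metamorphosis, had 2490035 reads in T4, 1605684 in T25 and 144330 in T40. In T40 it was 15.3-fold lower (15.3 to 15.4) than in T25. The moderately methionine rich storage protein (c188452_g2_i4) had 3611733 reads in T4, 762040 in T25 and 271034 in T40, and was 3.88-fold lower (3.86 to 3.90) than in T25. A glutathione S-transferase-like unigene (c184028_g1_i1), of a family of detoxification enzymes, stood at 965 FPKM in T40 and 23824 FPKM in T25, and was 26.6-fold lower (26.2 to 27). A vitellogenin-like unigene (c184383_g1_i1), of the large lipid transfer proteins that include yolk precursors, had 29900 reads in T40 against 229241 in T25. Another vitellogenin-like unigene (c188857_g1_i1), not in the T40/T25 table, had 38010 reads in T40 against 38644 in T25, a ratio of 0.71 (0.70 to 0.72). A unigene similar to 15-hydroxyprostaglandin dehydrogenase (c172264_g1_i1), a short-chain dehydrogenase, was 4.62-fold lower (4.59 to 4.66), and the secreted BMP-binding regulator c150167_g1_i1 9.99-fold lower (9.83 to 10.2).

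**Figure D2:**
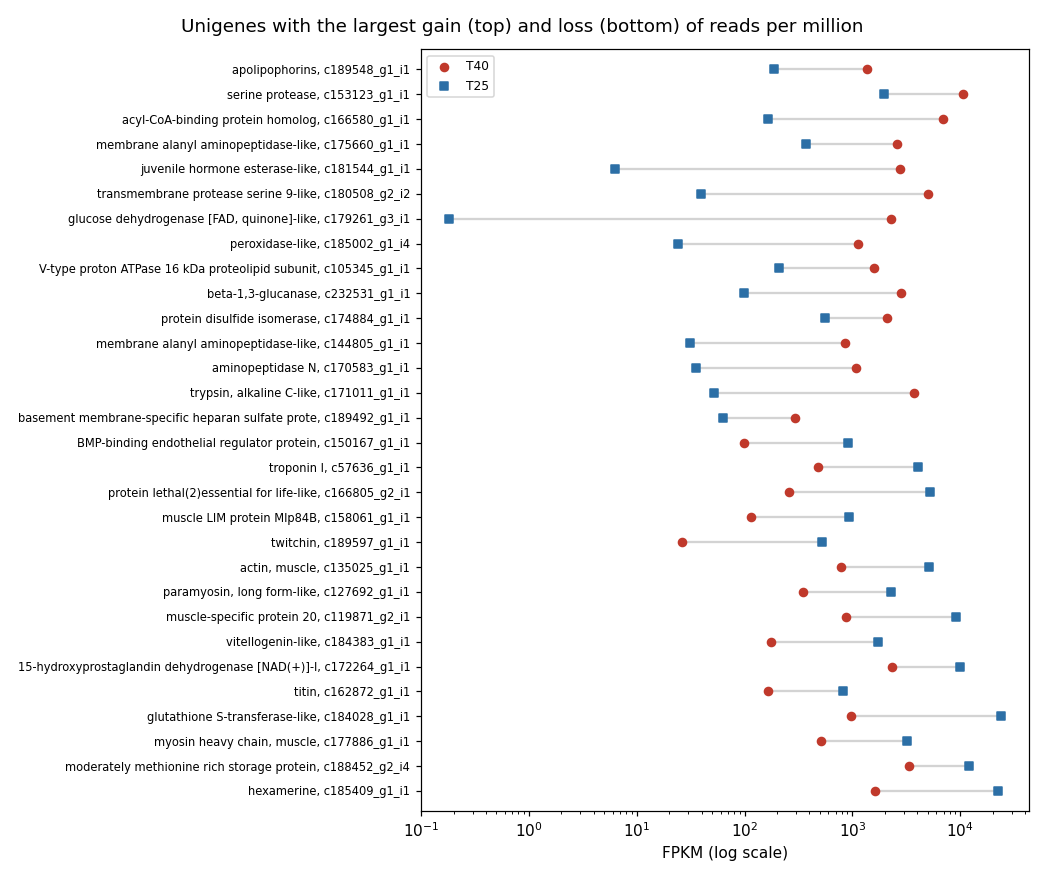
FPKM on a log axis in T40 (red circles) and T25 (blue squares) of the 15 annotated unigenes with the largest gain and the 15 with the largest loss of RPM. The glucose dehydrogenase-like unigene spans the widest gap of the gains, and hexamerin and a glutathione S-transferase-like unigene reach the highest FPKM in T25.

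The listed unigenes for the entrance to the secretory pathway lay on 1 side. All 41 listed unigenes for ER translocation and COP coats were higher in T40, 16 of them at least 8-fold, with a median log2 ratio of 2.71. Their summed level was 8303 RPM in T40 and 1087 in T25. The Sec61 channel, through which nascent proteins enter the ER, was represented by its alpha (c165090_g1_i1), beta (c197031_g1_i1) and gamma (c150768_g1_i1) subunits. Sec61 alpha, the pore itself, had 31306 reads in T40 against 868 in T25, and was 26.1-fold higher (24.4 to 28). The 4 translocon-associated subunits, which sit beside that channel, included alpha (c177246_g4_i1) at 21-fold higher (19.7 to 22.3) and gamma (c162794_g1_i1) at 54.9-fold higher (48.6 to 62.2). All 7 of these Sec61 and translocon-associated unigenes were at least 10.3-fold higher. The translocation protein SEC62 (c169455_g1_i1), another partner of the channel that the T40/T25 table leaves out, was not higher, with 9348 reads in T40 against 8418 in T25, a ratio of 0.81 (0.78 to 0.83).

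Each step next to the channel lay on the same side. The 9 unigenes of the signal recognition particle and its receptor, which bring ribosomes to the ER, were 2.48- to 8.15-fold higher in T40. The 5 of the signal peptidase complex, which cleaves signal peptides, were 5.36- to 9.28-fold higher. Of the oligosaccharyltransferase subunits, which attach N-glycans, 6 of 7 were higher, and c181501_g2_i1 was 14.4-fold higher (13.4 to 15.5). The exception, c180509_g3_i1, had only 2 reads in T40 against 12 in T25. Of all 28 unigenes for N-glycan and GPI-anchor synthesis, 27 were higher.

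Vesicle coats followed. The COPI coat, which returns vesicles from the Golgi to the ER, had 8 unigenes at 4.38- to 51.3-fold higher, among them coatomer beta′ (c171627_g1_i1) with 18100 reads in T40 against 2251 in T25. The coatomer epsilon unigene (c177568_g1_i1) was 51.3-fold higher (40.5 to 66.1). The COPII coat, which forms vesicles leaving the ER, was listed with Sec13, Sec23A, Sec24C and Sec31A, and Sec31A (c188868_g1_i2) was 32.8-fold higher (26.7 to 40.7). All 7 unigenes of the p24 cargo receptors were higher, with the *bai* homolog (c88830_g1_i1) at 4.70-fold higher (4.52 to 4.90).

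**Figure D3:**
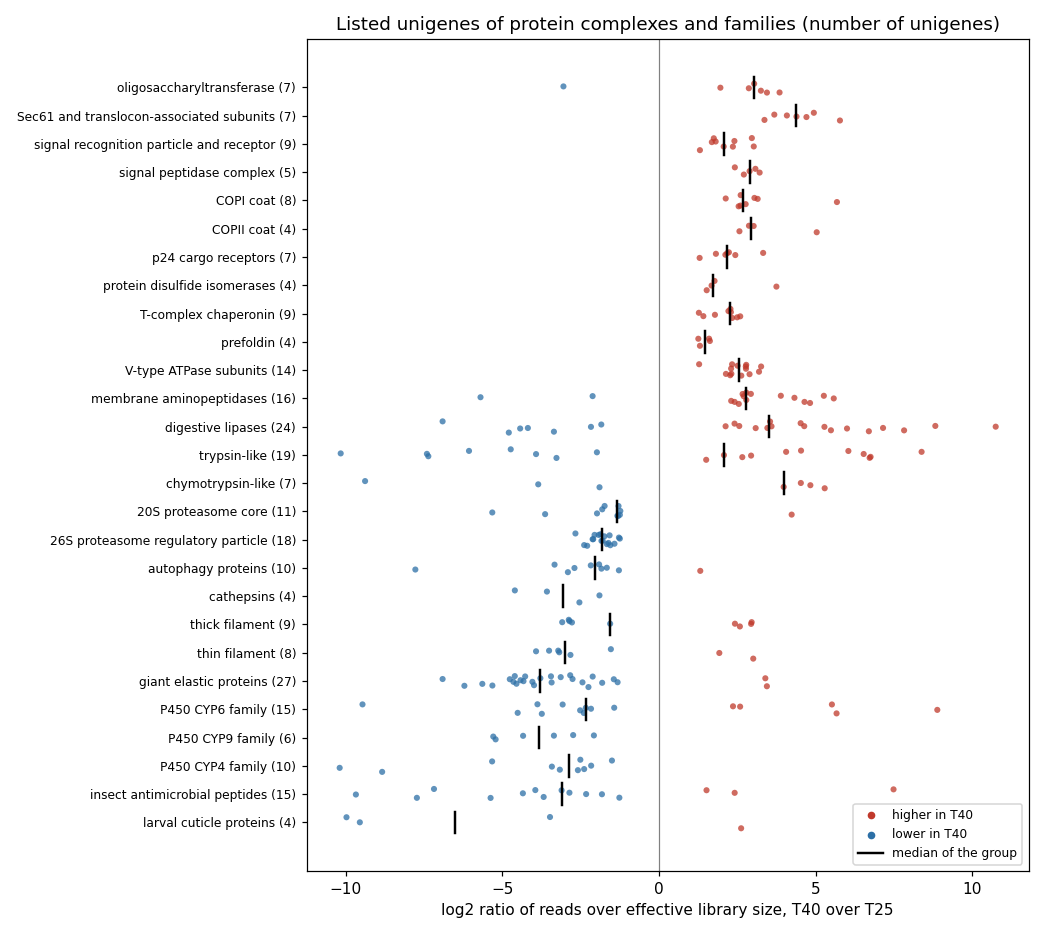
The log2 ratio of T40 over T25 for each listed unigene of protein complexes and families, higher in T40 in red and lower in T40 in blue, with the group median as a black bar and the number of unigenes in parentheses. Secretory pathway, chaperonin and V-type ATPase unigenes lie right of 0 apart from 1 oligosaccharyltransferase unigene, while the 26S proteasome regulatory particle, cathepsins and the CYP9 and CYP4 families lie wholly left of it.

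The heat shock proteins did not all lie on 1 side. The listed chaperones of the ER and the mitochondria and the chaperonin rings were higher in T40, while most listed small heat shock proteins and a heat-inducible type of Hsp70 were lower. Of the Hsp70 list, 4 of 5 unigenes were higher, of Hsp90 and co-chaperones 4 of 4, of DnaJ and exchange factors 11 of 14 (7 of 14 with the median of all insect NR hits set to 0), and of the small heat shock proteins 1 of 4.

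The most abundant of the Hsp70 list in T40 was annotated in NR as heat shock cognate 70 (c174698_g1_i1), while its KEGG and UniProt entries name the ER chaperone BiP. It had 94082 reads in T40 against 1100 in T25, or 829.7 FPKM in T40 and 12.3 FPKM in T25, and was 62-fold higher (58.4 to 65.9). The Hsp70-type hypoxia up-regulated protein 1 (c50639_g1_i1), an ER exchange factor for BiP in mammals, was 22.6-fold higher (21.1 to 24.3). Endoplasmin (c168634_g1_i1), the Hsp90 of the ER, had 44245 reads in T40 against 1466 in T25 and was 21.9-fold higher (20.8 to 23.1). The ER DnaJ protein *shv* (c164307_g1_i1) was 34.4-fold higher (30.5 to 38.9), and DnaJ subfamily C member 3 (c182482_g1_i1), which in mammals is an ER-stress induced partner of BiP, was 7.23-fold higher (6.68 to 7.83). All 11 listed unigenes of ER folding and quality control were higher, with protein disulfide isomerase (c174884_g1_i1), which forms disulfide bonds, at 2092 FPKM in T40 and 561 FPKM in T25.

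In mitochondria, the Hsp70 cognate 5 (c185889_g2_i1) was 6.37-fold higher (6.04 to 6.72), the Hsp90 homolog of 75 kDa (c154897_g1_i1) 6.27-fold higher (5.67 to 6.93), and the chaperonin Hsp60 (c165538_g1_i1) 8.06-fold higher (7.66 to 8.48). The T-complex chaperonin, which folds actin and tubulin in the cytosol, was listed with 9 unigenes at 2.42- to 6.04-fold higher in T40. Its partner prefoldin was listed with 4, at 2.39- to 3.09-fold higher. No listed unigene of the chaperonin list was lower, but 3 of the 15 turned lower when the median of all insect NR hits was set to 0, a shift of -1.40 on the log2 scale.

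Heat shock proteins of the cytosol lay on both sides. An Hsp70 unigene (c147153_g1_i1) whose UniProt match is the heat-inducible Hsp70Ba of *Drosophila* had 277 reads in T40 against 982 in T25, and was 4.89-fold lower (4.28 to 5.61). Among small heat shock proteins, which hold unfolding proteins in solution, a unigene of the lethal(2)essential for life type (c166805_g2_i1) had 7807 reads in T40 against 124947 in T25, or 257 FPKM in T40 and 5227 FPKM in T25, and was 22.1-fold lower (21.6 to 22.6). A further unigene of that type (c173498_g2_i1) had 22 reads in T40 against 1104 in T25. Small heat shock protein 27.2 (c157922_g1_i1) had 5085 reads in T40 against 37651 in T25, and was 10.2-fold lower (9.92 to 10.5). The listed exception, c156219_g1_i1, was 15.6-fold higher (10.7 to 23.7) with 602 reads in T40 against 28 in T25. The summed level of the 4 small heat shock unigenes was 350 RPM in T40 and 5844 in T25. On the other side, Hsp83 (c178820_g1_i1), the cytosolic Hsp90, was 4.02-fold higher (2.54 to 6.65) but thinly covered, with 122 reads in T40 against 22 in T25. The 97 kDa heat shock protein (c186154_g3_i1), an exchange factor of Hsp70, was 2.35-fold higher (2.26 to 2.45).

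Some unigenes that the T40/T25 table leaves out have counts for both libraries in the tables against T4. Among them, the Hsp70-type unigene c180345_g2_i1 had 2 reads in T40 against 2 in T25, and 1005 in T4. The small heat shock unigenes c174709_g1_i1, c174709_g2_i1 and c177818_g1_i1 had 176, 14 and 12 reads in T40 against 89, 2 and 10 in T25. None of these was thus among the abundant RNAs of T40.

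**Figure D4:**
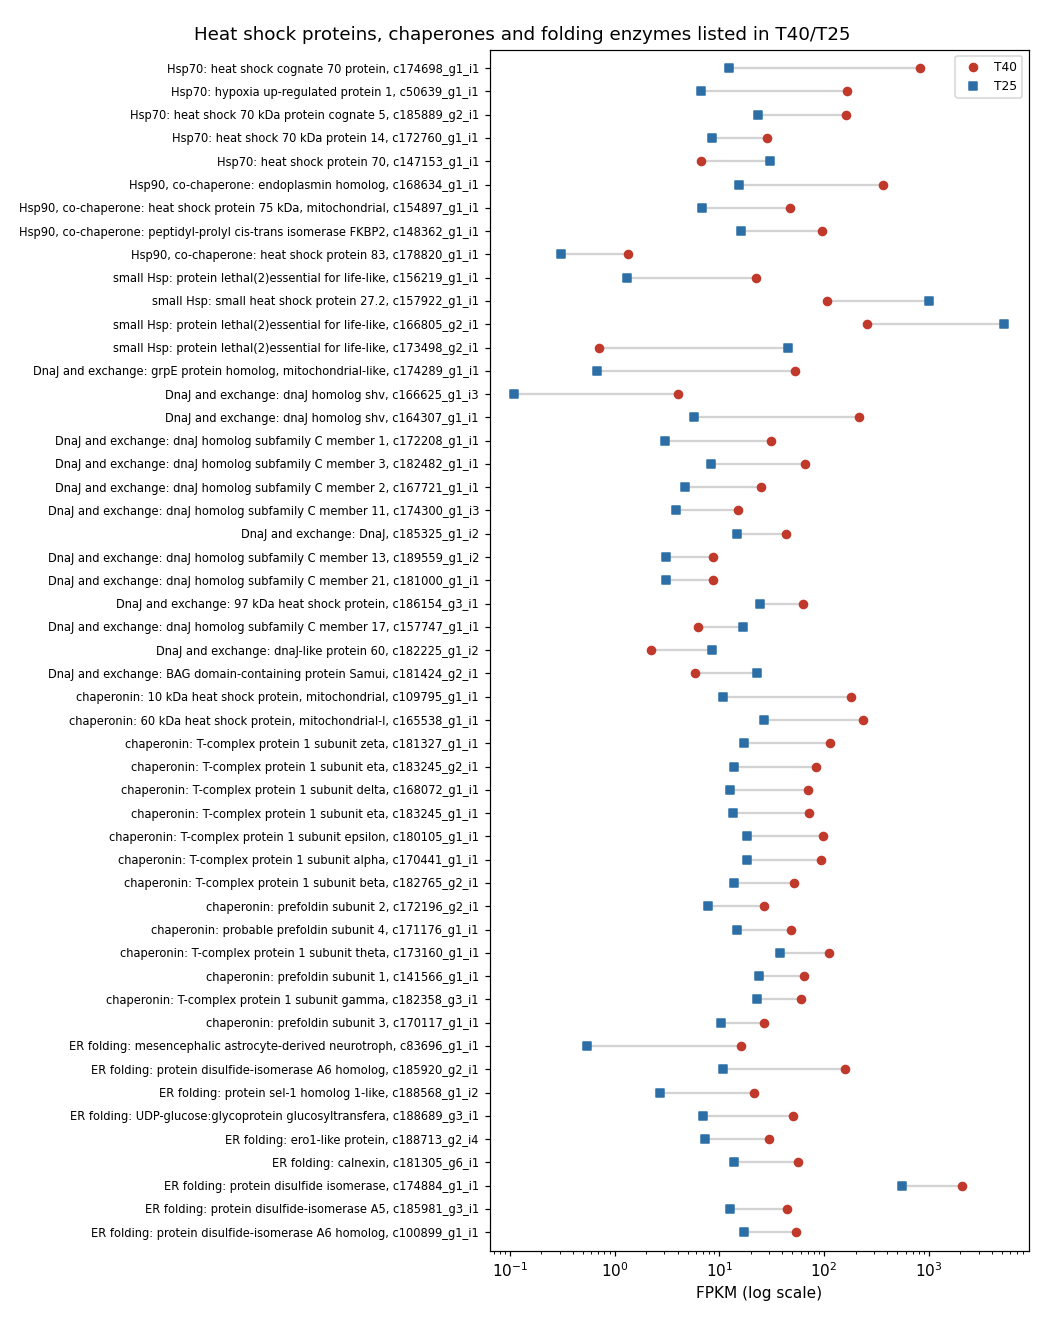
FPKM on a log axis in T40 (red circles) and T25 (blue squares) for the listed heat shock proteins, chaperones and folding enzymes, ordered by family and by fold. The ER chaperone c174698_g1_i1 and protein disulfide isomerase lead in T40, and the small heat shock protein c166805_g2_i1 has the highest FPKM of the plot in T25.

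Protein degradation split by pathway. The 26S regulatory particle and, under the authors' scaling, the 20S core and most ubiquitin enzymes were lower in T40, as were the lysosomal cathepsins, while the proton pump that acidifies lysosomes and other compartments was higher. The 26S regulatory particle, which recognises and unfolds ubiquitin-tagged proteins, was listed with 18 unigenes, all lower in T40 by 2.38- to 6.35-fold. The non-ATPase subunits 1 (c185296_g2_i1) and 11 (c163737_g1_i1) carried most reads, with 12594 reads in T40 against 31696 in T25 for subunit 1. Subunit 11 was 4.16-fold lower (4.06 to 4.25). Of the 20S core, which cuts proteins into peptides, 10 of 11 unigenes were lower, with alpha type-1 (c182078_g1_i1) at 39.97-fold lower (36.5 to 43.9). The exception was a fragment similar to alpha type-7-1 (c156106_g1_i1) with 26 reads in T40 against 1 in T25. The listed proteasome unigenes summed to 2828 RPM in T40 and 9781 in T25. With median-of-ratios scaling the core turned to 6 higher and 5 lower unigenes, while the regulatory particle stayed at 15 of 18 lower.

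Of 75 listed ubiquitin enzymes, 24 were higher and 51 lower, with a median log2 ratio of -1.46 that turned to 0.05 under median-of-ratios scaling. The deubiquitinating enzyme USP7-like (c183852_g3_i2) had 8847 reads in T40 against 21773 in T25, and USP14 (c214970_g1_i1), which acts on the proteasome, was 4.27-fold lower (4.13 to 4.42). The RING finger protein *nhl-1* (c187423_g1_i2) was 24.9-fold lower (23.4 to 26.5). Among the higher ones, SUMO-3 (c132557_g1_i1), a ubiquitin-like modifier, was 3.13-fold higher (2.97 to 3.30), and 2 enzymes of ufmylation, a modification linked to the ER, were the ligase c185839_g1_i1 at 3.80-fold higher (3.53 to 4.10) and the activating enzyme c182794_g2_i1 at 9.61-fold higher (8.14 to 11.4).

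The V-type ATPase pumps protons into lysosomes and, in the caterpillar midgut, also energises the apical membrane. All of its 14 listed unigenes were higher in T40, by 2.43- to 9.59-fold, with a summed level of 16260 RPM in T40 and 2625 in T25. The 16 kDa proteolipid (c105345_g1_i1) had 155121 reads in T40 against 16311 in T25, and the catalytic subunit A (c166405_g1_i1) 83722 reads in T40 against 8884 in T25. Cathepsins L1 (c173807_g1_i1), D (c186479_g3_i1) and B (c171119_g1_i1), proteases of the lysosome, were 3.73-fold lower (3.67 to 3.79), 5.81-fold lower (5.69 to 5.95) and 11.9-fold lower (11.4 to 12.4). Of 10 unigenes of autophagy proteins, 9 were lower. The exception was Atg8 (c134220_g1_i1), which coats autophagosomes, at 2.50-fold higher (2.43 to 2.56) with 26369 reads in T40 against 7662 in T25.

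Digestive enzymes were higher in T40 in their abundant forms, while other members of the same families were lower. Of the membrane aminopeptidases, which release amino acids from peptides at the midgut surface, 14 of 16 unigenes were higher, and they summed to 19146 RPM in T40 and 2362 in T25. A membrane alanyl aminopeptidase (c175660_g1_i1) had 266795 reads in T40 against 30396 in T25, and aminopeptidase N (c170583_g1_i1) was 28.3-fold higher (27.3 to 29.4). Of the trypsin-like unigenes 11 were higher and 8 lower, and of the chymotrypsin-like ones 4 were higher and 3 lower.

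The trypsins ran in opposite directions even under 1 name. The alkaline C-like trypsin c171011_g1_i1 had 105265 reads in T40 against 1154 in T25, or 66.1-fold higher (62.4 to 70.1). Another alkaline C-like trypsin, c181312_g4_i1, had 10 reads in T40 against 8295 in T25, or 1144-fold lower (622 to 2387), and a further unigene of that name, c183989_g7_i1, was 165-fold lower (113 to 250.1). Chymotrypsinogen B-like c178325_g4_i1 was 28.5-fold higher (26.6 to 30.6) and the brachyurin-like protease c177328_g1_i1 108-fold higher (90.5 to 130.2).

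Lipid and carbohydrate digestion showed the same mixture. Of 24 unigenes of digestive lipases, which release fatty acids from dietary fat, 17 were higher and 7 lower, and 14 of the higher ones by at least 8-fold. The pancreatic lipase-like unigenes c169459_g1_i1 and c169459_g2_i1 had 60591 reads in T40 against 1910 in T25 and 43802 reads in T40 against 223 in T25. On the other side, c169533_g1_i1 was 27.7-fold lower (24 to 32.2). Maltase A1-like c179745_g1_i1 and alpha-amylase c29579_g1_i1, which break down maltose and starch, were 234-fold higher (183 to 304) and 3.58-fold higher (3.51 to 3.64), while the myrosinase 1-like beta-glucosidase c178828_g5_i3 was 55.2-fold lower (42.7 to 72.5). The 4 midgut markers together had 22 higher and 12 lower unigenes and summed to 10545 RPM in T40 and 1420.0 in T25. Whether more midgut RNA in the T40 library has a part in the digestive values was not tested.

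Muscle RNAs were lower in T40 throughout the abundant sarcomere proteins. Of 65 listed muscle and sarcomere unigenes 14 were higher and 51 lower, 28 of those lower by at least 8-fold, and the sums were 12231 RPM in T40 and 87853 in T25. Muscle myosin heavy chain (c177886_g1_i1), the motor of the thick filament, had 117008 reads in T40 against 581678 in T25, and was 6.86-fold lower (6.81 to 6.90). Paramyosin (c127692_g1_i1), which forms the core of that filament in insects, was 7.24-fold lower (7.16 to 7.32). Muscle actin (c135025_g1_i1) of the thin filament was 7.09-fold lower (7.01 to 7.17), and troponin I (c57636_g1_i1), which blocks contraction at low calcium, 9.08-fold lower (8.95 to 9.22). The muscle transcription factor Mef2 (c196323_g1_i1) was 9.04-fold lower (8.62 to 9.48).

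Single unigenes of the giant elastic proteins, which span the sarcomere, reached wider differences than those of the filaments, but the summed levels did not lie far apart. The sum was 8.14-fold lower for the giant elastic proteins, 7.04-fold for the thick and 7.25-fold for the thin filament. Of 27 unigenes annotated as giant elastic proteins (titin, twitchin, projectin, obscurin and relatives), 25 were lower in T40, by 2.50- to 120.0-fold. The 5 lower thick filament unigenes were 2.94- to 8.51-fold lower, and the 6 lower thin filament unigenes 2.90- to 15.2-fold. Titin c162872_g1_i1 had 101453 reads in T40 against 399555 in T25, while twitchin c189597_g1_i1 was 21.4-fold lower (20.9 to 21.8) and obscurin c189488_g1_i1 was 25-fold lower (24 to 26.1). Not every myosin was lower. Of 12 unigenes of myosins of non-muscle cells, 8 were higher, with myosin-IA (c187812_g2_i2) and myosin-IB (c185370_g3_i1), which link membranes to actin, at 11.3-fold higher (9.89 to 12.9) and 9.99-fold higher (9.39 to 10.6). Short fragments of muscle myosin heavy chain, such as c99163_g1_i1 with 126 reads in T40 against 17 in T25, were higher, at a small part of the level of c177886_g1_i1 (2.77 against 512 FPKM in T40). How reads were shared among these near-identical sequences was not tested.

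Fat body products did not move together. Storage proteins were lower in T40, with the hexamerin unigene at 3735 RPM in T40 and 57313 in T25, and storage proteins at 7219 in T40 and 28027 in T25. Apolipophorin, also made by the fat body, was higher, at 13072 RPM in T40 and 1965 in T25. Of the lipid carrier list, 11 of 17 unigenes were higher (64.7%) and 6 lower, against 53.5% higher among all insect NR hits. The fatty acid-binding protein c148792_g1_i1 had 93607 reads in T40 against 244 in T25, and was 278-fold higher (245 to 317). The sterol transporter Niemann-Pick 1B-like (c179201_g2_i1), which acts in the gut in *Drosophila*, was 44.4-fold higher (41.8 to 47.2). Transferrin (c186923_g4_i1) and a ferritin subunit (c177757_g1_i1), which carry and store iron, were 15.4-fold higher (14.6 to 16.2) and 2.69-fold higher (2.63 to 2.76). The fat body markers that were listed had 1 higher and 3 lower unigenes and summed to 24026 RPM in T40 and 87306 in T25, and the part of fat body share in these values was not tested.

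Energy metabolism leaned to higher levels in T40. Of the mitochondrial ribosome 54 of 56 listed unigenes were higher, of the respiratory chain and ATP synthase 23 of 26, of fatty acid oxidation 32 of 36, and of glycolysis and the pentose phosphate pathway 14 of 15. The mitochondrial ribosomal proteins were modest in size, with a median log2 ratio of 1.83, and the ones with most reads, such as S9 (c175643_g1_i1) and L47 (c159522_g1_i1), were 3.25-fold higher (2.87 to 3.70) and 3.21-fold higher (2.79 to 3.69). The exceptions were S5 (c173729_g1_i1) at 8.14-fold lower (6.93 to 9.61) and 1 other unigene, while another S5 fragment (c183147_g2_i1) was 2.44-fold higher (2.16 to 2.77).

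Peroxisomal acyl-CoA oxidase (c182306_g3_i2), which starts fatty acid oxidation in peroxisomes, had 35698 reads in T40 against 757 in T25, and was 34.2-fold higher (31.8 to 36.8). Carnitine O-acetyltransferase (c232600_g1_i1) was 8.69-fold higher (8.26 to 9.14). Hexokinases c181320_g1_i1 and c185356_g1_i1, which trap glucose in cells, were 4.15-fold higher (3.99 to 4.32) and 7.54-fold higher (7.15 to 7.95). The mitochondrial phosphate carrier (c182887_g1_i1), which brings phosphate in for ATP synthesis, had 57898 reads in T40 against 10319 in T25. In contrast, trehalose-phosphate synthase (c183580_g1_i1), which makes the blood sugar of insects, was 9.31-fold lower (9.01 to 9.62), and of 43 facilitated trehalose transporter-like unigenes 15 were higher and 28 lower.

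Lipid synthesis and amino acid metabolism were mixed. Fatty acid synthase 2 (c185592_g6_i2) was 12-fold higher (11.5 to 12.4), whereas the acyl-CoA delta(11) desaturase-like unigene c174887_g1_i1, which introduces double bonds, was 6.11-fold lower (5.99 to 6.24) with 10534 reads in T40 against 46686 in T25. ATP-citrate synthase (c186208_g3_i2), the source of cytosolic acetyl-CoA, was 9.09-fold higher (8.66 to 9.54). Asparagine synthetase (c189653_g1_i1), which in mammals is a target of the amino acid and ER stress responses, was 27-fold higher (23.7 to 30.8). Phosphoserine phosphatase (c181739_g3_i1) and phosphoglycerate dehydrogenase (c176700_g1_i1), which both act in serine synthesis, lay apart at 2.66-fold higher (2.60 to 2.71) and 3.04-fold lower (3.01 to 3.08).

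Structural proteins of the cuticle were mostly lower in T40, as were 27 of 38 unigenes of the chitin and peritrophic matrix list. Of 12 cuticle protein unigenes 9 were lower. Larval cuticle protein LCP-14-like (c170679_g1_i1) had 26 reads in T40 against 18972 in T25, and was 1006-fold lower (687 to 1541), and cuticle protein 1 (c151428_g1_i1) was 7.55-fold lower (7.26 to 7.85). Probable chitinase 10 (c189255_g1_i1), of the enzymes that digest old cuticle at moulting, had 46 reads in T40 against 14376 in T25, or 431-fold lower (323 to 589). Peritrophins, which bind the chitin sheath around food in the midgut, went the other way. Peritrophin-like c179826_g3_i2 had 21428 reads in T40 against 21 in T25, or 739.8-fold higher (484 to 1195), and all 4 peritrophin-named unigenes were higher, at 834 RPM in T40 and 24.4 in T25. Chitin synthase (c188078_g2_i1) was 4.36-fold higher (4.22 to 4.51). The methods name the fourth instar at treatment and the fifth at RNA extraction, and whether T40 and T25 larvae were at the same point of the moulting cycle was not measured.

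Among listed detoxification enzymes, cytochrome P450 unigenes were mostly lower in T40, while glutathione S-transferases and carboxylesterases were mostly higher. P450s oxidise hormones, plant toxins and insecticides. Of 49 listed, 8 were higher and 41 lower, 21 of them by at least 8-fold, while their sum was 2634 RPM in T40 and 2254 in T25. All 6 listed unigenes of the CYP9 family were lower, by 4.22- to 39.1-fold, and all 10 listed ones of CYP4, by 2.83- to 1170-fold. The CYP6 family had 5 higher and 10 lower unigenes, but the higher ones held most of the reads, so that the family summed to 2391 RPM in T40 and 760 in T25. Among them, the 6B2-like unigene c176116_g1_i1 had 51770 reads in T40 against 817 in T25, or 45.9-fold higher (42.9 to 49.3), and CYP6B50 (c189635_g1_i1) was 473-fold higher (309 to 765). The CYP6B42 unigene c181951_g7_i1 had 2 reads in T40 against 1024 in T25, and the CYP9A27 unigene c184847_g10_i1 14 reads in T40 against 397 in T25. A further 16 P450 unigenes that the T40/T25 table leaves out have known counts, and they lay on both sides. Another CYP6B42 unigene (c181951_g2_i1) had 166 reads in T40 against 261 in T25, a ratio of 0.46 (0.38 to 0.56). The 6B2-like c187401_g1_i1 had 249 reads in T40 against 84 in T25, a ratio of 2.15 (1.67 to 2.79). Of CYP4 type, the 4g15-like c179592_g3_i1 had a ratio of 0.44 (0.33 to 0.57) and the 4g1-like c177889_g2_i6 one of 1.52 (0.96 to 2.46).

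Of 43 glutathione S-transferase and UDP-glycosyltransferase unigenes, 27 were higher and 16 lower. The 2 families differed, with 23 of 27 higher for the gene ontology term glutathione transferase activity and 10 of 22 for the UDPGT domain of UDP-glycosyltransferases. Yet the sum of the 43 was lower in T40, at 3037 RPM against 13718 in T25, and c184028_g1_i1 alone held 465 of these in T40 and 12391 in T25. The sigma-class members s3 (c186504_g9_i1) and s2 (c171165_g6_i3) were 6.24-fold higher (5.95 to 6.56) and 4.77-fold higher (4.53 to 5.03). Of 37 carboxylesterases 26 were higher, with antennal esterase CXE14 (c177682_g4_i1) at 318-fold higher (219.9 to 479), while venom carboxylesterase-6-like c184960_g1_i1 was 25.3-fold lower (23.7 to 27). Among antioxidant enzymes, peroxiredoxin 1 (c176327_g6_i2) and mitochondrial thioredoxin (c184619_g2_i3), which reduce peroxides and disulfides, were 4.46-fold higher (4.28 to 4.64) and 5.73-fold higher (5.59 to 5.87). The Cu-Zn superoxide dismutase-like unigene c123333_g1_i1 had 342 reads in T40 against 7964 in T25, and was 32.1-fold lower (28.8 to 35.9).

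Hormone-related unigenes included some of the widest differences. Juvenile hormone, which keeps larvae larval, is inactivated by an esterase and an epoxide hydrolase. The juvenile hormone esterase-like unigene c181544_g1_i1 had 188837 reads in T40 against 334 in T25, and was 409.9-fold higher (368 to 458). Epoxide hydrolase-like c179093_g2_i1 and c181284_g10_i1 were 9.09-fold higher (8.64 to 9.56) and 39.5-fold higher (35.3 to 44.4), beside c179215_g2_i2 of the primers shown above. A further juvenile hormone esterase-like unigene, c187482_g3_i2, was 27.6-fold lower (20.5 to 38.1). On the ecdysteroid side, the receptor EcR (c182468_g1_i4) and the early-response nuclear factors E74 (c189602_g2_i2) and E75 (c182995_g1_i6) were 2.85-fold lower (2.75 to 2.96), 2.47-fold lower (2.41 to 2.53) and 2.53-fold lower (2.45 to 2.61), differences of E74 and E75 that median-of-ratios scaling turns round. The ecdysteroid-regulated 16 kDa protein c180588_g2_i1 had 219 reads in T40 against 9951 in T25. Of all 23 listed unigenes of these hormones, 9 were higher and 14 lower. Their median log2 ratio of -1.41 turned to 0.09 under median-of-ratios scaling. They summed to 7175 RPM in T40 and 2437 in T25. The esterase-like c181544_g1_i1 alone held 188837 of their 277271 reads in T40, against 334 of 68284 in T25, so the higher sum rests largely on it.

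Immune effectors and recognition proteins were mostly lower in T40. Of 15 antimicrobial peptide unigenes 12 were lower, and all 4 lysozymes were, which attack bacterial cell walls. Another lysozyme-like unigene (c172484_g2_i1), not in the T40/T25 table, had 3995 reads in T40 against 2471 in T25, a ratio of 1.17 (1.11 to 1.23). The 4 listed lysozymes together had 2176 reads in T40, a count not corrected for unigene length. Gloverin (c173756_g5_i1) had 11 reads in T40 against 6520 in T25, and attacin 1 (c180045_g1_i1) was 20.3-fold lower (18.8 to 22). Moricin (c142827_g1_i1) had 303 reads in T40 against 2816 in T25. The clear exception was a defensin precursor (c160379_g1_i1) with 4708 reads in T40 against 19 in T25, or 179.6-fold higher (115 to 299). Of pathogen recognition and Toll/Imd unigenes 23 of 27 were lower, among them peptidoglycan recognition protein LB (c176022_g5_i1) at 5.30-fold lower (4.96 to 5.66). The beta-1,3-glucanase c232531_g1_i1, related to glucan recognition proteins, went against them at 25.9-fold higher (25.1 to 26.8) and held most of the list's reads, so that the list summed to 3516 RPM in T40 and 916 in T25.

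In the melanization cascade, which hardens clots and encapsulates intruders, 16 of 20 unigenes were lower. Prophenoloxidase subunit 2 (c186243_g3_i3) had 579 reads in T40 against 3982 in T25, and subunit 1 (c185950_g2_i1) was 10.2-fold lower (9.04 to 11.4). The serpin antichymotrypsin-1-like (c179146_g1_i3), an inhibitor of serine proteases, had 22147 reads in T40 against 82828 in T25. Prophenoloxidase and hemocytin are also the defining markers of haemocytes, the blood cells. The 4 haemocyte markers had 1 higher and 7 lower unigenes and summed to 223 RPM in T40 and 801 in T25. The wider haemocyte list of 10 unigenes had 3 higher and 7 lower, and summed to 683 RPM in T40 and 885 in T25. The part of haemocyte share in the immune values was not tested.

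Most listed sensory and nervous system unigenes were lower in T40, but their summed neural level was not. Of 14 chemosensory unigenes 11 were lower, with odorant binding protein 17 (c185017_g2_i1) at 69 reads in T40 against 8615 in T25. The temperature- and touch-sensing channel gene *painless* of the TRP family (c182569_g1_i1) was 11.6-fold lower (10.5 to 12.7) with 484 reads in T40 against 4058 in T25. Of 60 neural receptors and channels, 22 were higher and 38 lower, and they summed to 1318 RPM in T40 and 1254 in T25. The 4 nervous system markers had 3 higher and 6 lower unigenes and summed to 495 RPM in T40 and 229.7 in T25, of which the *elav* family, of neuronal RNA-binding proteins, held 470.3 in T40 and 169.6 in T25. Synaptic vesicle glycoprotein 2-like transporters lay on both sides, with 2B-like c172036_g1_i1 at 65.7-fold higher (57.8 to 75) and 2C-like c175351_g17_i3 at 151-fold lower (121 to 192). Of the silk gland markers, fibrohexamerin (c167706_g1_i1) had 12 reads in T40 against 2617 in T25, and no unigene named sericin or seroin was listed. The wider silk and spinning gland list had 1 higher and 3 lower unigenes, and summed to 70.5 RPM in T40 and 123 in T25.

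The machinery of gene expression was higher in T40 while many regulators were lower. Of ribosome biogenesis and RNA polymerases 49 of 53 unigenes were higher, of translation factors and tRNA ligases 35 of 39, and of splicing and RNA processing 51 of 61. Nucleolar protein 58 (c186373_g1_i1), a core of the particles that modify rRNA, was 24.7-fold higher (19.9 to 31), alanine-tRNA ligase (c205489_g1_i1) 6.51-fold higher (6.15 to 6.89), and translation initiation factor 4B (c181827_g5_i1) 5.40-fold higher (5.11 to 5.71). Of 146 transcription factor unigenes 58 were higher and 88 lower, which became 70 and 76 with median-of-ratios scaling. The nuclear receptor HNF-4 (c181669_g6_i4), a regulator of lipid metabolism in *Drosophila*, was 3.67-fold higher (3.49 to 3.86), and forkhead box K2 (c178944_g1_i3) 3.58-fold lower (3.42 to 3.75).

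Families that no list holds were covered by protein domains and gene ontology (GO) terms, counted for every domain with at least 12 unigenes (59 domains) and every term with at least 25 (162 terms). Of unigenes with a Pfam domain 56.3% were higher in T40 and 43.7% lower, and of those with a GO term 56.4% were higher and 43.6% lower. At the higher end stood the C-terminal glutathione S-transferase domain with 11 of 12 higher, mitochondrial carriers with 20 of 23, DEAD-box helicases with 16 of 19 and peptidase family M1 with 10 of 12. At the lower end stood the DDE_Tnp_4 transposase domain with 3 of 38 higher, P450 with 9 of 56, the piggyBac-type DDE_Tnp_1_7 domain with 7 of 39 and the chitin-binding cuticle domain with 3 of 16. Among GO terms, mitochondrial translation had 40 of 40 higher and ER membrane 45 of 52, while the Z disc of the sarcomere had 9 of 35 and mesoderm development 6 of 32. EcKinase-domain proteins, of which 11 of 15 were higher, included c177968_g1_i1, an uncharacterized unigene with 20873 reads in T40 against 14 in T25, or 1081-fold higher (644 to 1977). Ecdysteroid kinases inactivate ecdysteroids by phosphorylation.

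Most listed transposable element unigenes were lower in T40, but single elements reached wide differences on either side. Of 62 unigenes of DNA transposon proteins 17 were higher and 45 lower, and of 88 of retroelement proteins 35 were higher and 53 lower. The sums lay apart, with DNA transposon proteins at 374 RPM in T40 and 988 in T25 and retroelement proteins at 853 in T40 and 698 in T25. A Copia polyprotein (c185976_g1_i1) had 20 reads in T4, 99 in T25 and 18899 in T40. A *jockey*-type reverse transcriptase (c186618_g3_i2) went the other way, with 43 reads in T4, 5096 in T25 and 22 in T40. Copies of an element share sequence, so reads may be divided among them.

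Unigenes of the same assembly component also diverged. A component gathers contigs that share sequence, and 2893 components have 2 or more listed unigenes, 7172 in all. Of these, 779 components had all unigenes higher in T40, 1191 all lower, and 923 both (31.9%). The pyruvate dehydrogenase kinase unigenes c184252_g1_i1 and c184252_g2_i1, which switch off entry of pyruvate to the citric acid cycle, were an agreeing pair at 6.21-fold lower (5.84 to 6.62) and 6.58-fold lower (5.56 to 7.83). The amino acid transporters c172272_g2_i1 and c172272_g1_i1 were a diverging pair at 2.66-fold higher (2.57 to 2.76) and 3.38-fold lower (3.17 to 3.60).

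Larvae carry gut bacteria, and 37 listed unigenes had a bacterial best nucleotide match. These are RNAs of other organisms in the sample, and most fell into 2 patterns. All 4 unigenes matched to *Pluralibacter*, a genus of enterobacteria, were lower in T40, with 91.1 RPM in T40 and 2132 in T25, and c183088_g5_i1 held most of them, with 2402 reads in T40 against 36405 in T25. All 4 matched to *Enterococcus mundtii*, a lactic acid bacterium found in moth guts, were lower as well, at 27.6 in T40 and 370 in T25. Of 26 unigenes matched to other *Enterococcus*, 25 were higher in T40, but at low counts. Many protein matches among these 25 are labelled MULTISPECIES, so they may not tell *Enterococcus* species apart. Elongation factor G (c162943_g1_i1) had the most reads of these 25, with 359 reads in T40 against 36 in T25, or 7.23-fold higher (5.12 to 10.5). The exception, c179895_g5_i1, had 328 reads in T40 against 698 in T25, and all 26 summed to 55.4 RPM in T40 and 31.6 in T25. It shares an assembly component with c179895_g1_i1, which held most *E. mundtii* reads (1054 in T40 against 10136 in T25). Together the bacterial unigenes held 0.0359% of the listed reads in T40 and 0.457% in T25.

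**Figure D5:**
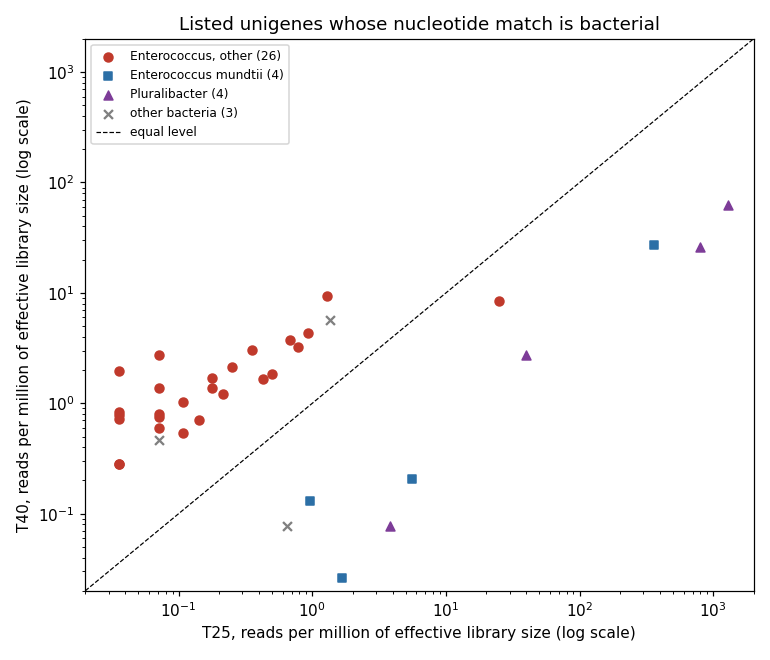
RPM in T40 (vertical axis) and T25 (horizontal axis), both log scale, for the 37 listed unigenes with a bacterial nucleotide match. *Pluralibacter* (purple) and *Enterococcus mundtii* (blue) lie below the line of equal level, and 25 of 26 other *Enterococcus* unigenes (red) lie above it.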

How the data were processed

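RNA of whole larvae was sequenced in 1 library of 5 pooled larvae per temperature. Per the labels and methods, the authors trimmed reads (Trimmomatic 0.38, checked with FastQC 0.11.7), assembled unigenes with Trinity, mapped reads with Bowtie 1.1.2 and estimated abundance with RSEM, and DESeq2 is named in the submitters' processing notes. The deposited values are expected counts written as whole numbers, FPKM computed by the authors, and the authors' log2 of reads per 1000000 (of an effective library size) plus 1, from which the effective sizes were recovered. Columns with the authors' mean levels, fold changes, p-values and adjusted p-values were not used.

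Ratios of counts over effective sizes were computed with Python 3.11.15, pandas 2.3.3, numpy 2.4.6 and scipy 1.17.1, with 95% exact (Clopper-Pearson) intervals given the sum of both counts, checked on simulated data. TMM factors came from edgeR 4.0.16 in R 4.3.3, and figures from matplotlib 3.10.9. With 1 library per temperature no test was made. Members and gene lists were chosen with earlier results of these data known. Named unigenes were the 15 with the largest gain and the 15 with the largest loss of RPM, up to 4 per direction and list with most reads (50 or more in the higher library), the leading unigenes of named Pfam domains, and primer targets. Complexes and families such as Sec61, the 20S core or CYP9 were grouped after their values were seen, as were their members named outside that rule, the ribosomal RNA and bacterial unigenes and those absent from the T40/T25 table. Of the component rule, only the coarser assembly level held components with 2 or more unigenes. Alternatives covered scaling, filters, pseudocounts, fold limits and redundancy.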

Additional observations from a re-analysis of the deposited data

How the results depend on the processing

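No result rests on replicates, so depth limits only the counting error, and larva-to-larva variation was not measured. No paired analysis was possible because each temperature has 1 library and the titles share a single number. The median log2 ratio shifted by 1.51 with median-of-ratios factors, 0.10 with TMM, 0.16 with trimmed read totals and 0.12 with FPKM. Median-of-ratios and TMM factors were computed from the listed unigenes alone. No listed unigene lies between 2.35-fold lower and 2.35-fold higher.

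The counts of higher and lower unigenes (9453 and 10624) became 4559 and 3904 with at least 100 reads and 3282 and 2839 with an NR hit only. The counts at least 8-fold higher and lower (2051 and 2212) became 5564 and 946 with median-of-ratios factors, 3550 and 4121 with at least 10 reads, 909 and 852 with an NR hit only and 1022 and 1448 with a pseudocount of 10. At 4-fold they were 3988 and 3920, and at 16-fold 1096 and 1263. The share of the 10 most abundant unigenes (14.8% in T40 and 35.7% in T25) became 7.44% and 19.8% of the effective size, 17.1% and 43.2% by FPKM, and 13.3% and 34.2% without ribosomal RNA, mitochondrial genome and bacterial matches, an alternative chosen after seeing the data.

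Medians of gene lists changed sign in 10 cases. With median-of-ratios factors they were 0.048 for ubiquitin enzymes, 0.044 for fatty acid synthesis, 0.094 for juvenile hormone and ecdysteroid and 0.18 for protein kinases. With at least 100 reads they were 1.34 for trehalose, polyols and sugar transport and 1.81 for fatty acid synthesis, which was 1.54 with 1 unigene per NR hit. With the median of NR hits set to 0, chosen after seeing the data, they were -0.12 for autophagy and lysosome, -0.14 for apoptosis and -0.018 for microtubules. Fewer unigenes or a uniform shift give these changes by construction. With TMM, FPKM and at least 10 reads, all 54 lists kept the sign of their median.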
